A study of Mus musculus with 6 samples.

Results

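The genes described here encode the junctions of the cardiac intercalated disc: 4 gap junction connexins (Gja1, Gja4, Gja5 and Gjc1), 5 components of the desmosome (Dsp, Pkp2, Jup, Dsg2 and Dsc2) and the adherens junction cadherin Cdh2. They were picked by gene symbol from the deposited count table, and the 10 symbols matched 10 of its 57010 rows. All 10 passed the filter on low counts, which left 14799 genes. RNA-seq was performed on primary neonatal mouse cardiomyocytes (NMCMs) from newborn C57BL/6 mice. The study separated these cells from cardiac fibroblasts by differential adhesion, and fibroblast markers were still abundant in every library. Every culture was exposed to hypoxia (HO) and belonged either to the HO + Vehicle group (libraries V1 to V3) or to the HO + β-SITO group (libraries T4 to T6), in which the plant sterol β-sitosterol was added. No genetic change is named for either group, and no normoxic culture was analysed here. The dose of β-SITO and the hours under hypoxia used for these libraries are not given in the sources used here. Whether the 3 libraries of a group came from separate litters or cultures is not given either, so the p-values below measure the spread between these libraries, which may be technical.

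Neighbouring cardiomyocytes are joined end to end at the intercalated disc. Connexins assemble into channels that pass ions between the cells and so carry the electrical impulse, and the isoforms differ between working myocardium, atrium, conduction system and arterial endothelium. Desmosomes anchor the desmin filaments of one cell to those of the next: the desmosomal cadherins desmoglein and desmocollin bridge the gap, plakoglobin and plakophilin bind their tails, and desmoplakin holds the filaments. Adherens junctions connect the actin of the sarcomeres through N-cadherin and the catenins. Inherited defects of desmosomal genes are a known cause of arrhythmogenic cardiomyopathy.

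The libraries held between 16694734 and 18460522 counts. Library T4 differed from T5 and T6 in its cardiomyocyte markers and in some others. Each of 14 cardiomyocyte markers was lower in T4 than in the mean of T5 and T6. They stood at 35.3% to 74.1% of that mean (median 59.7%). Summed fibroblast markers of T4 were at 100.7%, endothelial markers at 97.0%, macrophage markers at 122.7% and epicardial and mesothelial markers at 115%. Smooth muscle and pericyte markers summed to 89.2% but were uneven. Of these, named after their values were seen, Rgs5 had 19.4 CPM in T4 against 32.8 and 34.5 in T5 and T6. Myh11 had 16.9 against 27.7 and 33.7, and Notch3 170.6 against 183.7 and 184.6. T5 and T6 differed from each other least of all library pairs (chi-square per degree of freedom 1.96, against 4.71 to 9.06 for the other pairs within a group). Among the HO + Vehicle libraries, V2 had 92.9% of the summed cardiomyocyte markers of V1 and V3. In bulk libraries, fewer cells of a type and less RNA per cell cannot be told apart. Counts were found in both groups for all 14 cardiomyocyte markers, and also for all 10 markers each of fibroblasts, endothelium, macrophages and smooth muscle or pericytes. The lymphocyte markers Cd3e and Cd3g and the neutrophil markers Retnlg and Ly6g had no count in any library. Other markers of these 2 lists did have counts. Csf3r had 221 to 242 per library with vehicle and 52 to 79 with β-SITO, and S100a9 had 4 to 18 in all libraries. Cd4 had 3 to 11 with vehicle and 35 to 38 with β-SITO. The library names of the HO + β-SITO group carry a suffix that the others lack, and whether those libraries were prepared apart cannot be told apart from β-SITO itself.

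RefSeq (build GRCm38.p6) gave a start-site window for 5 of the 10 genes: Gja1, Gja4, Gja5, Dsp and Jup. The 250 bases before the start are printed for Jup and Gja5, the members that rose with β-SITO, and for Gja1, the most abundant connexin, whose groups overlapped. They lie at chr11:100397791-100398040 on the minus strand (Jup), chr3:97032152-97032401 on the plus strand (Gja5) and chr10:56377050-56377299 on the plus strand (Gja1). Capitals mark, on either strand, the GC box with the letters GGGCGG, the GATA motif with the letters AGATAA and the AP-1 motif with the letters TGANTCA.
Jup: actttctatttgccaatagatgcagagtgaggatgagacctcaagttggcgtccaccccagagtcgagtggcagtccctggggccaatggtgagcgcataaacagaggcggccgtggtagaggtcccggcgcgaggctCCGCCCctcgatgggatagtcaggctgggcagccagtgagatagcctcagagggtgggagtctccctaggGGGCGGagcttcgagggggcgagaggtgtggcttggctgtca
Gja5: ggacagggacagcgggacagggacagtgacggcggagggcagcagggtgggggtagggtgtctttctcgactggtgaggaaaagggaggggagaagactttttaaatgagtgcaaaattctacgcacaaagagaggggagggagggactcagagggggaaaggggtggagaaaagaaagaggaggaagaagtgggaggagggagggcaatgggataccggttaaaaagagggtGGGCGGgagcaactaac
Gja1: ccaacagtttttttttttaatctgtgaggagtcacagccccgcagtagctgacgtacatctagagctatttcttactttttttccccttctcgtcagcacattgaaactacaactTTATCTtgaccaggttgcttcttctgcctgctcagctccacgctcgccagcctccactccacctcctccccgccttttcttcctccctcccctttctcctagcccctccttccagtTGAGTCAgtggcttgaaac

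The Jup window holds 2 GC boxes and the Gja5 window 1, and neither holds the GATA or AP-1 letters. The Gja1 window holds 1 GATA match and 1 AP-1 match and no GC box. For comparison, 32.7% of all 32851 windows of this length hold a GC box, 9.99% the GATA letters and 6.75% the AP-1 letters. The T-box motif with the letters TCACACC (3.33% of all windows) and the NKX2-5 motif with the letters TNAAGTG (10.1%) are in none of the 5 windows, of which the Dsp window holds 4 GC boxes and the Gja4 window 1. Letters of the KLF type (CACCC, 52% of windows) occur 4 times before Gja5, once overlapping its GC box by 1 base, and 2 times before Jup. E-box letters (CANNTG, 66.2% of windows) are in the Gja1 window only. These matches describe the letters and were not tested for use.

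Comparing HO + β-SITO with HO + Vehicle, 2 of the 10 genes were higher and 4 lower by edgeR's quasi-likelihood test at an adjusted p under 0.05. Jup and Gja5 rose, Dsg2, Dsc2, Pkp2 and Cdh2 fell, and Gja1, Gja4, Gjc1 and Dsp did not pass. These 6 of 10 lie near the share in the whole table, where 66.8% of the genes tested passed, 33% as higher and 33.8% as lower. With the study's further requirement of a change over 2-fold, 1 member was a differentially expressed gene (DEG) that was higher (Jup) and 1 a DEG that was lower (Dsg2), against 12.8% and 10.1% of all genes tested (22.8% in either direction). For 7 of the 10 the ranges of the groups were apart, 3 of them higher and 4 lower. That share is like the 70.5% of all genes whose groups did not overlap (34.8% higher and 35.8% lower). The split of all passing genes depended on the scaling: 49.4% of them were higher with TMM normalization, 61.4% with upper quartile normalization and 61.8% with library size only, and the median log2 fold change of all genes tested was -0.0073, 0.14 and 0.14, respectively. Under the latter scalings, Gja4 passed as higher (log2 fold change 0.30 under both) and Cdh2 did not pass (-0.14 under both), values that lie above the TMM values by about the shift of all genes. Values are given below as CPM (counts scaled to library size after TMM normalization), which compares a gene between libraries but not with another gene.

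**Figure D1:**
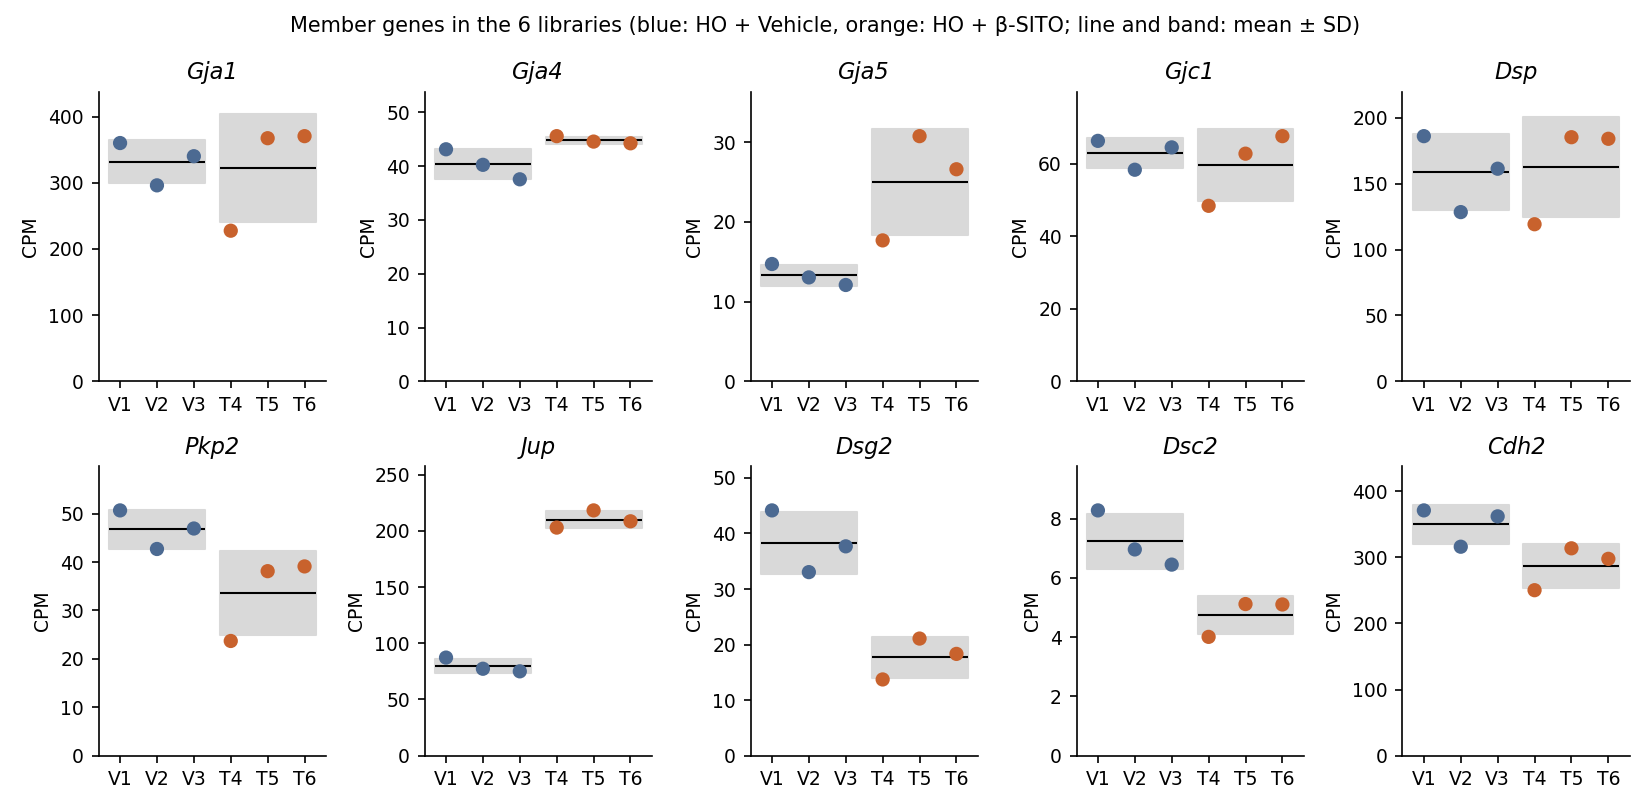
CPM of the 10 junction genes (y axis, from 0) in each of the 6 libraries (x axis), with HO + Vehicle in blue and HO + β-SITO in orange, and a line and band for the mean ± SD of 3 libraries. Jup separates the groups with 75.1 to 87.3 against 203.0 to 218.3 CPM, and in 9 of the 10 panels T4 is the lowest orange point.

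Gja1 encodes connexin 43, the main connexin of the working ventricle, and lies on chr10:56253426-56278609 of the GRCm39 build named in the submitters' processing notes. Its level was 360, 296.1 and 340.1 CPM in V1 to V3 and 227.6, 367.3 and 370.4 CPM in T4 to T6. T4 was the lowest of all 6 libraries while T5 and T6 were the highest, so the groups overlapped. The log2 fold change was -0.05 (95% interval -0.34 to 0.25, adjusted p = 0.78), and without T4 it was 0.15 (adjusted p = 0.070). The interval with all libraries leaves room for a change of either sign up to its bounds, so equal expression is not shown.

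Gjc1 encodes connexin 45, a connexin of nodal tissue and the embryonic heart (chr11:102690405-102710526). It had 66.3, 58.4 and 64.5 CPM with vehicle and 48.4, 62.8 and 67.6 CPM with β-SITO. As with Gja1, T4 was the lowest library and T6 the highest. Its log2 fold change was -0.08 (95% interval -0.29 to 0.13, adjusted p = 0.48).

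Gja5, which encodes connexin 40 of atrial myocytes, the conduction system and arterial endothelium, was the connexin that rose (chr3:96812009-96984732). Counts of 233, 208 and 195 in V1 to V3 stood against 344, 547 and 511 in T4 to T6, or 14.7, 13.04 and 12.1 against 17.7, 30.8 and 26.6 CPM. Every HO + β-SITO library was above every HO + Vehicle library, and T4 was the closest to them. The group means were 13.3 ± 1.33 and 25.0 ± 6.68 CPM (SD, n = 3), a 1.88-fold increase (log2 fold change 0.91 ± 0.16 SE, adjusted p = 1.20e-04). This is under 2-fold, and it was over 2-fold without T4 (log2 fold change 1.11, adjusted p = 7.29e-10), without V1 (1.01), with upper quartile normalization (1.05) and with library size only (1.06). On the opposite strand, the annotated gene meets an end of Gpr89, with 288 to 303 counts with vehicle and 269 to 363 with β-SITO. The strand setting of the counting is not given in the sources used here, so reads from the shared stretch of Gpr89 could not be told apart.

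Gja4 encodes connexin 37, best known from arterial endothelium (chr4:127205214-127207832). Its values were 43.1, 40.2 and 37.6 CPM with vehicle and 45.6, 44.6 and 44.2 CPM with β-SITO. The libraries did not overlap and T4 was the highest, unlike for the other 9 genes, but the difference was small. With a log2 fold change of 0.15 (95% interval 0.0038 to 0.30), it did not pass after adjustment (adjusted p = 0.066). It passed when V1 was left out (log2 fold change 0.23, adjusted p = 0.015).

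Jup showed the largest change of the 10 genes in either direction. It encodes plakoglobin, the armadillo protein that links desmosomal and classical cadherins to the cytoskeleton and is shared by desmosomes and adherens junctions (chr11:100259784-100288589). The HO + Vehicle libraries had 87.3, 77.4 and 75.1 CPM and the HO + β-SITO libraries 203.0, 218.3 and 208.6 CPM. The means of 79.9 ± 6.50 and 210.0 ± 7.74 CPM (SD, n = 3) give a 2.63-fold increase (log2 fold change 1.39 ± 0.066 SE, adjusted p = 4.59e-11). T4 was in the range of T5 and T6 here, at 95.1% of their mean. Leaving out each library in turn kept the log2 fold change between 1.37 and 1.48.

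Dsg2 and Dsc2, the desmoglein and desmocollin found in heart muscle, both fell and both lie on chromosome 18. Dsg2 had 44.1, 33.0 and 37.7 CPM with vehicle and 13.7, 21.1 and 18.3 CPM with β-SITO. The lowest HO + Vehicle library was well above the highest HO + β-SITO library, and the mean was 2.17-fold lower (log2 fold change -1.12 ± 0.13 SE, adjusted p = 2.28e-06). This change was just under 2-fold without V1 (log2 fold change -0.98) and without T4 (-0.96), and it passed the test in both cases. Dsc2 was the scarcest member, with 131, 111 and 104 counts in V1 to V3 and 78, 91 and 98 counts in T4 to T6. On the CPM scale it went from 7.23 ± 0.943 to 4.74 ± 0.635 (SD, n = 3), 1.52-fold lower without overlap (log2 fold change -0.61 ± 0.15 SE, adjusted p = 0.0025).

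Pkp2 encodes plakophilin 2, which ties the cadherin tails to desmoplakin (chr16:16031182-16090576). Its level was 50.7, 42.7 and 46.9 CPM with vehicle and 23.7, 38.1 and 39.1 CPM with β-SITO. The ranges were apart, but T4 lay far below T5 and T6. The log2 fold change of -0.48 ± 0.14 SE (adjusted p = 0.0067) shrank to -0.28 without T4 and still passed (adjusted p = 0.0057).

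Dsp, the desmoplakin gene (chr13:38335270-38382553), had 186.0, 128.4 and 161.3 CPM with vehicle and 119.2, 185.2 and 184.0 CPM with β-SITO. V2 and T4 were the low libraries, and the groups overlapped. Its log2 fold change was 0.04 (95% interval -0.27 to 0.35, adjusted p = 0.83), and without T4 it was 0.22, which passed the test (adjusted p = 0.044).

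Cdh2, which encodes N-cadherin of the adherens junction (chromosome 18), had 370.7, 315.8 and 361.7 CPM with vehicle and 250.1, 313.4 and 297.5 CPM with β-SITO. The highest HO + β-SITO library, T5, was only just below the lowest HO + Vehicle library, V2. The 1.22-fold decrease (log2 fold change -0.28 ± 0.083 SE) passed the test (adjusted p = 0.0068). It no longer passed without V1 (log2 fold change -0.22, adjusted p = 0.051) or without V3 (-0.24, adjusted p = 0.060). For each of the 7 genes whose libraries did not overlap, the exact permutation test gave p = 0.1 (two-sided), the smallest that 3 libraries against 3 allow.

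**Figure D2:**
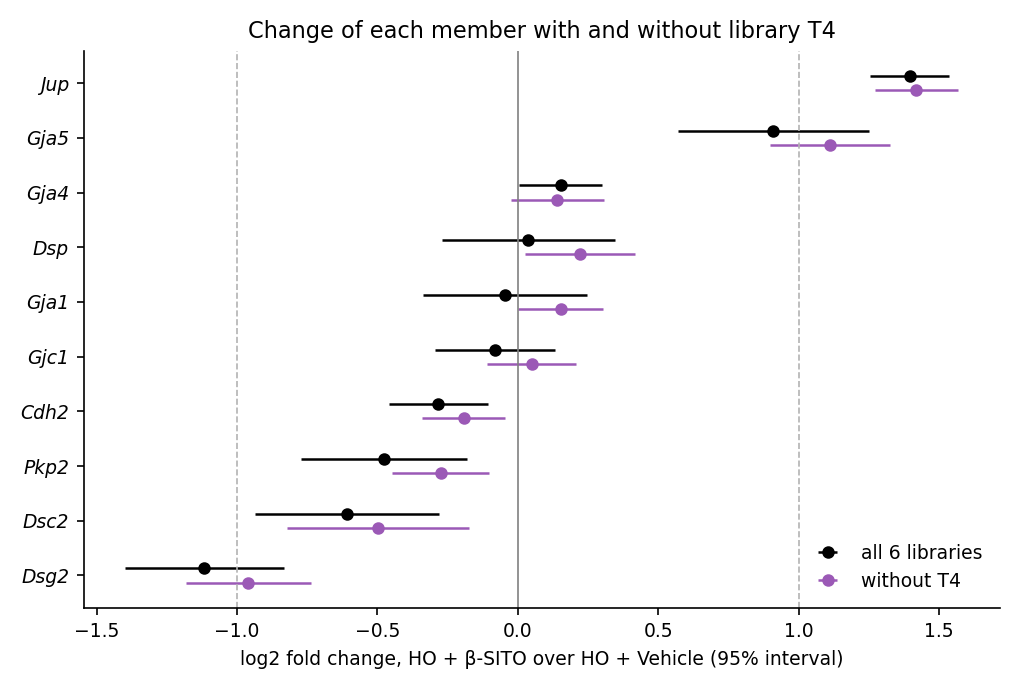
Log2 fold change of each junction gene (x axis, HO + β-SITO over HO + Vehicle, with its 95% interval), with all 6 libraries in black and without T4 in purple. Dashed lines mark a 2-fold change. Jup, at 1.39 and 1.42, was little moved by T4, whereas Gja5 went from 0.91 to 1.11 and Pkp2 from -0.48 to -0.28.

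To compare genes with each other, CPM was divided by the length of the main transcript in kilobases. With vehicle, Gja1 had the highest level of the connexins (104.4 ± 10.3 CPM per kilobase), followed by Gjc1 (27.3 ± 1.80) and Gja4 (23.9 ± 1.66), and Gja5 was lowest at 4.27 ± 0.428 (SD, n = 3 for each). With vehicle, Gjc1 was above Gja4 in each of the 3 libraries, although their ranges across libraries overlapped, and with β-SITO it was above in T5 and T6 and below in T4. Gja1 made up 65.2 ± 1.47% of the summed level of the 4 connexins with vehicle and 62.1 ± 4.26% with β-SITO (SD, n = 3). The share of Gja5 was 2.68 ± 0.234% with vehicle and 4.94 ± 0.521% with β-SITO, 2.26 percentage points higher. A share within a library does not depend on the scaling between libraries, and that of Gja5 was higher by 2.54 points without division by length. The levels of different genes rest on the length chosen. With the length of all exons together, an alternative added after the data were seen, Gja1 remained first with 45.4% with vehicle, but Gja4 came next with 33.6% (15.0% with the main transcript), ahead of Gjc1 with 17.7%.

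Among the desmosomal genes and Cdh2, the order of levels differed between the groups. Cdh2 was first with vehicle (72.1 ± 6.08 CPM per kilobase), ahead of Jup (24.9 ± 2.03), Dsp (16.5 ± 3.01) and Pkp2 (16.02 ± 1.37), and Dsg2 (6.64 ± 0.968) and Dsc2 (1.56 ± 0.204) were lowest (SD, n = 3 for each). The levels of Dsp and Pkp2 overlapped between libraries with vehicle. With β-SITO, Jup was at 65.5 ± 2.41 and Cdh2 at 59.3 ± 6.803 CPM per kilobase, and Jup was above Cdh2 in each of the 3 libraries, although their ranges across libraries overlapped. Jup took 18.1 ± 1.26% of the summed level of the 6 genes with vehicle and 41.9 ± 3.29% with β-SITO, 23.7 points more. Cdh2 took 52.4 ± 1.36% and 37.6 ± 0.434%. The order of Jup and Cdh2 with β-SITO turned with the length of all exons, which gave 34.8% for Jup and 37.7% for Cdh2, and Dsp (18.8%) then came before Jup (14.3%) with vehicle. The share of Jup was 20.5 points higher with β-SITO on that length as well. The share of Pkp2 was 11.6 ± 0.0972% against 7.25 ± 1.24%, and that of Dsg2 was 4.80 ± 0.267% against 1.94 ± 0.218%. Because the shares of the 6 genes sum to a fixed total, a rise of Jup lowers the others. The share of Dsp, whose log2 fold change in CPM was 0.04, was 11.9 ± 1.10% against 10.7 ± 1.51%.

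**Figure D3:**
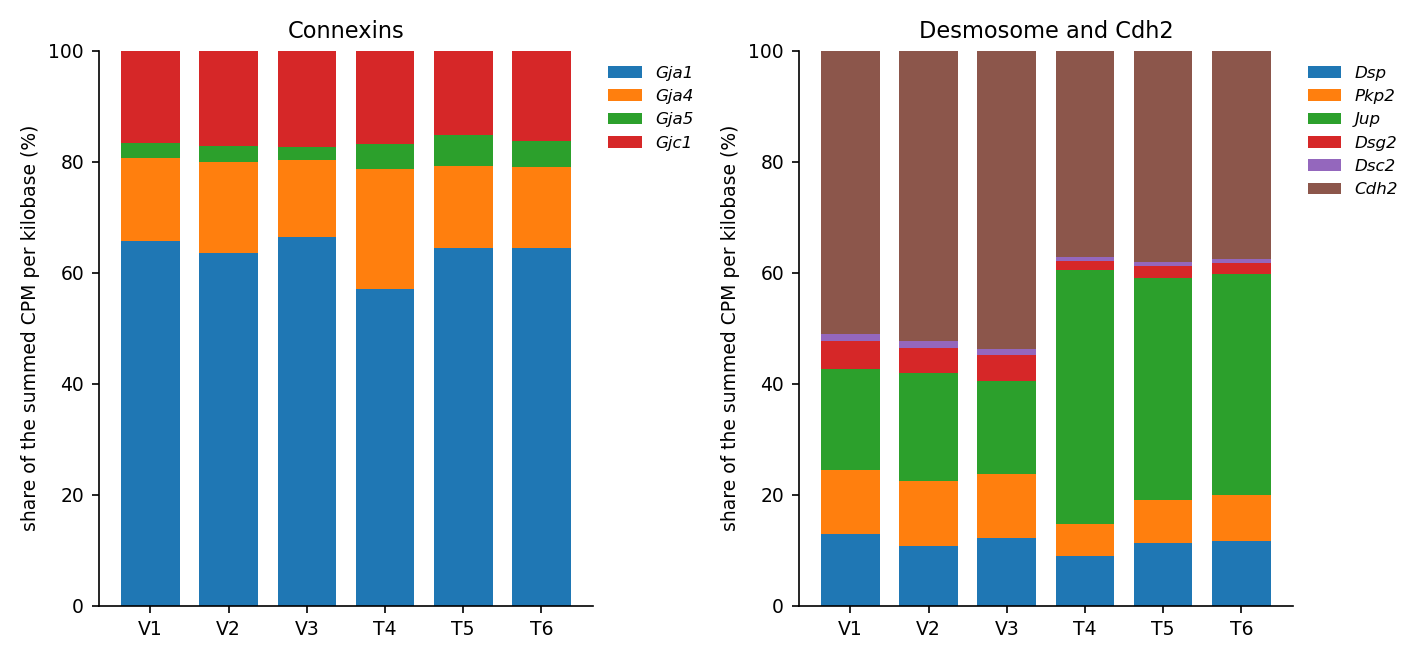
Share of each gene (y axis, percent of the summed CPM per kilobase) among the 4 connexins (left) and among the 5 desmosomal genes and Cdh2 (right) in each library (x axis). The green Jup segment goes from 18.1% with vehicle to 41.9% with β-SITO on average, and Gja5 from 2.68% to 4.94%.

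The genes differed in how low they stood in T4. In T4, Pkp2 (61.4%), Gja5 (61.7%), Gja1 (61.7%) and Dsp (64.6%) stood at nearly the same percentage of the mean of T5 and T6 as the summed cardiomyocyte markers (61.0%). Dsg2 (69.7%), Gjc1 (74.2%), Dsc2 (78.5%) and Cdh2 (81.9%) were less reduced. Jup (95.1%) and Gja4 (102.6%) were near the other libraries, as were the summed endothelial (97.0%), arterial endothelial (93.6%) and fibroblast markers (100.7%). T4 was the lowest HO + β-SITO library for 9 of the 10 genes and for 36.5% of all genes tested. The summed atrial and conduction myocyte markers were at 48.1%. Smooth muscle and pericyte markers summed to 89.2%, although some of them, such as Rgs5, were lower. These percentages describe 1 library against 2, and which cell type the genes followed was not tested.

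**Figure D4:**
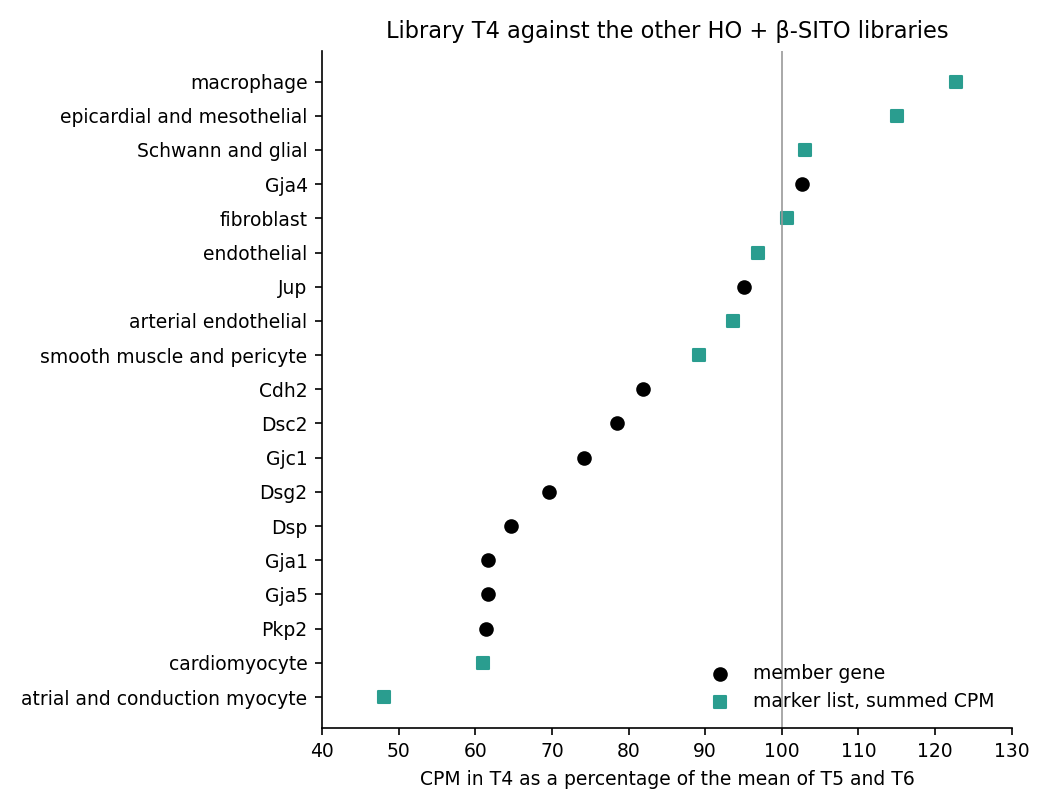
CPM in library T4 as a percentage of the mean of T5 and T6 (x axis), for the 10 junction genes (black) and the summed CPM of the marker lists (green), except the lymphocyte and neutrophil lists, which had few counts. Pkp2, Gja5, Gja1 and Dsp lie between 61.4% and 64.6%, next to the cardiomyocyte markers at 61.0%, and Jup and Gja4 lie at 95.1% and 102.6%.

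The genes were also expressed per 1000 counts of the 14 cardiomyocyte markers in the same library. Gja1 then had 46.5, 43.8 and 49.8 with vehicle and 40.4, 39.9 and 39.9 with β-SITO. On this scale its 3 HO + β-SITO libraries agreed to within a coefficient of variation of 0.686%, against 25.4% in CPM, and all lay below the HO + Vehicle libraries. Pkp2 had 6.55, 6.31 and 6.88 with vehicle and 4.21, 4.14 and 4.21 with β-SITO, again without overlap (coefficient of variation of the HO + β-SITO libraries 0.892%, against 25.6% in CPM). Gja1 and Pkp2 had the smallest such values of the 10 genes, which restates that their T4 percentages were near that of the summed markers. In the HO + β-SITO group the coefficient of variation was smaller than in CPM for 6 of the 10 genes. It was larger for Gja4 (32.15%, against 1.555% in CPM), Jup (27.35% against 3.68%), Cdh2 (18.0% against 11.5%) and Dsc2 (15.1% against 13.4%). In the HO + Vehicle group it was smaller for 10 of the 10. Of the 10992 tested genes with a mean of at least 100 counts, it was smaller for 3.97% in the HO + β-SITO group and 26.8% in the HO + Vehicle group. Gja5 remained higher with β-SITO (log2 ratio of the geometric group means 0.74), as did Jup (1.25), and Dsg2 (-1.27), Dsc2 (-0.75), Pkp2 (-0.65) and Cdh2 (-0.43) remained lower. Groups did not overlap on this scale for 7 of the 10 genes and for 42.2% of all genes. The scale is not neutral, because 4 of the 14 markers were themselves higher and 2 lower in the HO + β-SITO group, among them Myh6 (log2 fold change 0.53), the α-myosin heavy chain of the heart, which did not pass with DESeq2 (adjusted p = 0.051). The cardiac actin gene Actc1 did not pass (0.0048), except without T4 (0.23, adjusted p = 0.0060).

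Genes related to these junctions, or to their protein families, were taken from further lists. Of 19 other connexins and pannexins, 7 had no count in any library and 6 could be tested. Of these, 1 passed as higher and 3 as lower, against 33% and 33.8% of all genes tested. Their median log2 fold change was -0.71, against -0.0073 for all genes tested. Panx1, which encodes a channel protein that releases ATP, fell from 57.1 ± 1.58 to 14.3 ± 0.0921 CPM (SD, n = 3), 3.99-fold (adjusted p = 1.22e-12). Gjb5, named after its values were seen, was scarce and fell from 31 to 34 counts per HO + Vehicle library to 10 to 18 counts with β-SITO. Gja3, which encodes connexin 46, had a log2 fold change of 0.10 (adjusted p = 0.65).

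Of 13 other desmosomal genes, 6 had no count, among them the desmogleins Dsg1a, Dsg1b, Dsg1c and Dsg3 and the desmocollins Dsc1 and Dsc3 of stratified epithelium. The 5 that could be tested had a median log2 fold change of -0.22. Des, the desmin filament gene, was lower in the test (log2 fold change -0.54, adjusted p = 0.011), a call lost with DESeq2 (adjusted p = 0.14), with upper quartile normalization (0.052), with library size only (0.053) and without V1 (log2 fold change -0.42, adjusted p = 0.076). It had 188.2, 159.9 and 152.2 CPM with vehicle and 72.0, 134.3 and 138.8 CPM with β-SITO, with T4 again the lowest. Perp, a desmosomal membrane protein, did not pass (-0.22, adjusted p = 0.21), but did without T6 (-0.38, adjusted p = 0.025) and without the filter on low counts (adjusted p = 0.035). Pkp1 (-0.95) fell and the plakins Ppl (2.12) and Evpl (2.08) rose, but these 3, named after their values were seen, had means of only 13.7 to 15.2 counts per library.

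Partners of the adherens junction were mostly higher: of 15 tested, 10 passed as higher and 2 as lower, and the median log2 fold change was 0.43. Of all genes tested, 33% passed as higher and 33.8% as lower. The 2 that fell, named after their values were seen, were Nectin2 (-0.58) and the scarcer Ctnna2 (-0.59). Arvcf, a p120-related catenin, rose from 8.56 ± 0.177 to 50.5 ± 1.49 CPM (SD, n = 3; log2 fold change 2.56). Vcl, which encodes vinculin and couples cadherin complexes to actin, rose from 73.3 ± 9.21 to 234.9 ± 4.19 CPM (1.68), and its T4 value of 233.8 CPM lay between those of T5 and T6. Cdh5, the endothelial VE-cadherin, rose (1.84), and so did Cdh13 (0.84). The partners with the highest mean CPM differed less, with a log2 fold change of 0.22 for β-catenin (Ctnnb1, adjusted p = 0.0044) and 0.17 for αE-catenin (Ctnna1, adjusted p = 0.064). Ctnna1 passed without V1 (0.25), without T4 (0.23), without the filter on low counts (0.17) and with the scalings by upper quartile and library size (0.31 for both).

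Scaffold and channel partners of the disc went both ways, with 7 of 24 higher, 7 lower, 10 not passing and a median of -0.06. These shares are near those of all genes tested (33% higher and 33.8% lower). Fhl2, a LIM-domain protein of the sarcomere, rose 2.71-fold (log2 fold change 1.44), and Tmem65 (0.85), a protein of the disc membrane, and the junctophilin Jph2 (0.80) rose less. Ank2, which encodes ankyrin-B, fell from 118.0 ± 4.69 to 58.7 ± 1.10 CPM (SD, n = 3; log2 fold change -1.01). Mapre1, a microtubule end-binding protein, did not pass (-0.14, adjusted p = 0.058), except without T4 (-0.18, adjusted p = 0.021).

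Of 12 factors known to act on connexin genes, 7 passed as higher and 1 as lower, with a median of 0.29. Among all genes tested, 33% passed as higher and 33.8% as lower. Tbx5, a T-box activator of Gja5, rose from 10.2 ± 0.844 to 15.9 ± 3.75 CPM (SD, n = 3; log2 fold change 0.63, adjusted p = 0.0017), with 11.6 CPM in T4 against 17.5 and 18.5 CPM in T5 and T6. Tbx20 (0.91), Mef2c (1.41) and the endothelial factor Klf2 (1.68) rose too. The gene that fell, named after its values were seen, was Tbx3 (-1.01), a repressor of working-myocardium genes in the conduction system. It had 108 to 119 counts per HO + Vehicle library and 57 to 81 with β-SITO. Also named after their values were seen, the T-box gene Tbx2 rose (0.43, adjusted p = 0.019) and Nkx2-5 did not pass (-0.42, adjusted p = 0.087). Whether any of these factors acted on the connexin genes here was not tested. Gata4 was at 0.16 with overlapping groups (adjusted p = 0.048) and did not pass with DESeq2 (adjusted p = 0.066) or when V2 (0.080), V3 (0.11), T5 (0.093) or T6 (0.15) was left out.

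Markers of the cell types in which Gja5 and Gja4 are best known also differed between the groups. For comparison, 33% of all genes tested passed as higher and 33.8% as lower. All 10 markers of atrial and conduction myocytes passed as higher (median log2 fold change 1.64), and their summed level was 458.6 to 521.4 CPM with vehicle and 835.2 to 1769 CPM with β-SITO. Those with the highest mean CPM were the natriuretic peptide gene Nppa (2.82-fold higher) and the atrial myosin light chain gene Myl7 (5.24-fold higher), which is also on the cardiomyocyte list. In T4 this sum was at 48.1% of the mean of T5 and T6. All 10 endothelial markers passed as higher (median 2.02, summed 220.1 to 252.9 against 898.9 to 934.9 CPM), of which Cdh5, also an adherens junction partner, and Pecam1 had the highest mean CPM, and so did 7 of 7 tested arterial endothelial markers (median 1.14, summed 405.3 to 465.8 against 744.3 to 801.2 CPM). The 14 cardiomyocyte markers had a median of 0.12, with summed levels of 6766 to 7736 CPM with vehicle and 5633 to 9282 CPM with β-SITO that overlapped. Fibroblast markers (7 of 10 higher, 2 lower, summed 30090 to 31380 against 44790 to 45880 CPM), smooth muscle and pericyte markers (10 of 10 higher) and macrophage markers (8 of 10 higher, 1 lower) also moved with the group. Of the epicardial and mesothelial markers, 7 of 9 were higher and 2 lower (median 0.60). Their sum was lower nonetheless (919.2 to 956.2 against 203.5 to 244.6 CPM), since most of it was Aldh1a2, which encodes a retinoic acid synthesis enzyme and went from between 827.5 and 855 CPM to between 77.7 and 90.2 CPM. Schwann and glial markers (3 of 4 tested lower, with Erbb3 not passing at a log2 fold change of -0.02) were lower. The part of these cell types in the values of Jup, Gja5, Gja4 and the adherens junction partners was not tested.

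**Figure D5:**
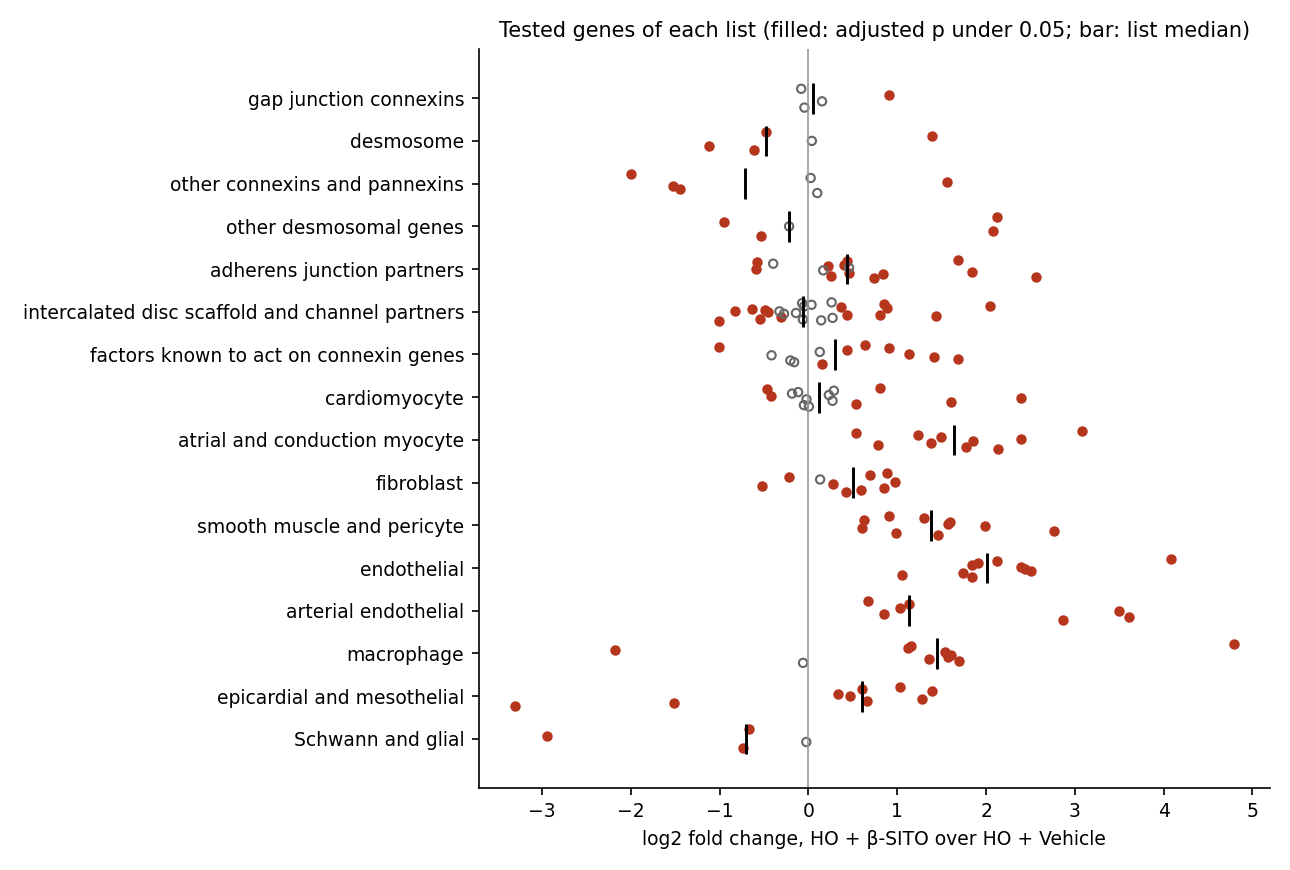
Log2 fold change (x axis, HO + β-SITO over HO + Vehicle) of each tested gene on the lists of junction genes, related genes and cell type markers. Filled points passed at an adjusted p under 0.05, open points did not, and black bars mark list medians, which were 0.05 for the 4 connexins, -0.48 for the 5 desmosomal genes and 2.02 for the endothelial markers. Cdh2 and the lymphocyte and neutrophil lists, with 1 tested gene each, are left out.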

How the data were processed

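The authors deposited raw counts per gene for all 6 libraries in 1 table, without normalization. The submitters' processing notes name FastQC, HISAT2, featureCounts and the build GRCm39. Their versions, the counting options and the strand setting are not given in the sources used here. The kit is named as ABclonal in the study's methods and as Illumina in the sample records.

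Counts were analysed with R 4.3.3 and edgeR 4.0.16: filterByExpr, TMM normalization and the quasi-likelihood test over all 14799 retained genes, with the group as the only term, Benjamini-Hochberg adjustment and a threshold of 0.05. DEGs also changed by more than 2-fold, the study's call, which it applied to DESeq2. Standard errors are the log2 fold change divided by the square root of the F statistic, and 95% intervals follow from them. Lengths came from GENCODE vM21 (longest principal transcript), matched by gene identifier only, since that annotation is on GRCm38.

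Groups came from the sample titles. Members and lists were chosen with earlier results of these data known. Named genes are all members and, per related list, the 2 most abundant and up to 4 with the largest change among passing genes whose mean reached 100 counts and whose groups did not overlap. Per marker list they are the 2 most abundant and those at 0, some of which are given only within their list. A few related and marker genes are not reported here. Sequence motifs and the transcript length used were chosen after the values were seen. Alternatives were other normalizations, filters and tests (DESeq2 1.42.0, limma-voom with limma 3.58.1, glmTreat), leaving out each library, cardiomyocyte marker counts as the scale, and other lengths. At this depth the scarcest member, Dsc2, had 78 to 131 counts per library.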

Additional observations from a re-analysis of the deposited data

How the results depend on the processing

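No paired analysis was possible because the replicate numbers of the groups, 1 to 3 and 4 to 6, are not shared. The number of DEGs among all genes was 3380, and it was within 1.5 times this value except without the fold requirement (9892, an alternative added after the data were seen). Among the members, 1 DEG was higher and 1 lower. With upper quartile normalization, with library size only, without V1 and without T4 these counts became 2 higher and 0 lower, as Gja5 crossed the 2-fold line and Dsg2 fell short of it, and glmTreat against a 2-fold change gave 0 lower. Leaving out each library gave 1 to 2 higher and 0 to 1 lower. The numbers of members passing were 2 to 3 higher and 3 to 4 lower. No member that passed in the main test changed sign, and the 3 members that did had not passed in it. Of the 3, Dsp passed without T4 (log2 fold change 0.22, adjusted p = 0.044). Log2 fold changes with upper quartile normalization and with library size only were 0.097 and 0.10 for Gja1, 0.061 and 0.066 for Gjc1, 0.0027 and 0.0078 for Mapre1, and 0.118 and 0.123 for Erbb3. Limma-voom gave -0.039 for Actc1. Leaving out each library gave -0.15 to 0.15 for Gja1, -0.174 to 0.049 for Gjc1, -0.093 to 0.22 for Dsp, -0.38 to 0.00043 for Perp, -0.13 to 0.23 for Actc1 and -0.112 to 0.146 for Erbb3, with T4 left out at the upper end of each. The cause was not tested. At this depth Dsc2, with 78 to 131 counts per library, had the fewest counts of the members.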
